A study of Homo sapiens with 44 samples.

Results

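Of the 1108 IRF2BP2 peaks called in vehicle-treated HEK293-GR cells, 624 were no longer called after dexamethasone (dex), a synthetic glucocorticoid, and these 624 regions are described here, of 2508 peaks in both files. They were chosen by the measured peak calls themselves: a peak was counted as lost when it overlapped no peak of the dex-treated cells by 1 base or more. Its absence from the dex file is therefore no finding. The other 484 vehicle peaks overlapped a dex peak and are called shared, and 916 of the 1400 dex peaks overlapped no vehicle peak and are called dex only. HEK293-GR is a human embryonic kidney line that constitutively expresses the glucocorticoid receptor (GR). For chromatin immunoprecipitation (ChIP) with an antibody against IRF2BP2, cells were kept without steroids for 48 h and treated for 1 h with ethanol as vehicle or with 100 nM dex, in 2 replicates each. There was 1 deposited peak file per condition, so a lost peak has no replicate check. RNA was sequenced from HEK293-GR cells transfected for 72 h with 20 nM of an siRNA that targets IRF2BP2 (siIRF2BP2) or of a non-targeting control (siNON) and then vehicle or 100 nM dex for 6 h. A549, a lung adenocarcinoma line, was treated in the same way, and also received TNF, which is not used here.

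IRF2BP2 is a transcriptional cofactor with a zinc finger and a RING domain, named after its binding to the interferon regulatory factor IRF2, and it is best known as a repressor. GR is a ligand-activated transcription factor that enters the nucleus upon glucocorticoid binding, activates genes from response elements, and lowers others, many of them targets of AP-1, the dimer of FOS and JUN proteins.

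The 12 HEK293-GR RNA libraries analysed held 18.2 to 28.5 M tags, with 3 libraries in each of 4 groups. The labels do not say whether these came from separate cultures, so p-values measure the spread between these libraries. Of 13 HEK293 marker genes, 11 had a mean of at least 1 FPKM, a level scaled by gene length and library depth, with a summed level of 161 to 262 FPKM per library. Of 11 blood, endothelial and fibroblast markers, 6 (PTPRC, HBB, PECAM1, CDH5, COL1A2 and DCN) lay under 0.1 FPKM and 2 reached 1 FPKM, with a summed level of 6.78 to 13.1 FPKM. Of 7 A549 markers 3 reached 1 FPKM and 3 (KRT7, SFTPB and AKR1C1) lay under 0.1 FPKM, with a summed level of 53.5 to 144 FPKM.

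At 24 of the 624 lost peaks (3.85%) the peak covered at least 100 of the 250 bases before a transcription start site (TSS). Such promoters included those of FOS and FOSB, subunits of AP-1, and of PTPN14, a phosphatase of the Hippo pathway. Their sequences are shown because a peak named below lay on part or all of each: chr14:75745222-75745564 at FOS, chr19:45970832-45971174 at FOSB and chr1:214725165-214725507 at PTPN14 (build hg19). The sequences are the 250 bases before the RefSeq start of each gene in build GRCh38.p14, whose start can differ from that of the hg19 annotation. Capitals mark TGACGT, the core of the cyclic AMP response element, and TATAAA in FOS and FOSB, and the TEAD core GGAATG, here on the other strand, in PTPN14. The FOSB peak covered 171 of the 250 bases and ended before the hg19 start at 45971253. Counted from that start, both stretches marked in FOSB lay between the end of the peak and the start.
FOS: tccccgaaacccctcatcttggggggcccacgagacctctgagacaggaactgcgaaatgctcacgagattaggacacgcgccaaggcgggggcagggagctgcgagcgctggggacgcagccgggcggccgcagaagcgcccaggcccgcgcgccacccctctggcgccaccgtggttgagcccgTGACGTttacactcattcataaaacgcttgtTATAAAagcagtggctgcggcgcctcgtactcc
FOSB: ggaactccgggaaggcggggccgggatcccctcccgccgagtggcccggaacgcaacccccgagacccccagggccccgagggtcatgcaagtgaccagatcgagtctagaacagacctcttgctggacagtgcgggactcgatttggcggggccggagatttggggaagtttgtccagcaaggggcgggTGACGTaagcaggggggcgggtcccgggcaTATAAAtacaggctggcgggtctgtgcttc
PTPN14: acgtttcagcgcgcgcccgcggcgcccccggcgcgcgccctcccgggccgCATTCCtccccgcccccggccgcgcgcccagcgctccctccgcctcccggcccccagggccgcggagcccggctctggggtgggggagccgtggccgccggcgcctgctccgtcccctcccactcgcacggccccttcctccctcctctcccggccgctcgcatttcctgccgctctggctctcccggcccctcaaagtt

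FOS and FOSB had the same arrangement, with TGACGT 64 and 60 bases and TATAAA 33 and 30 bases before the start. Those of FOSB lay outside its lost peak. For 11 of the genes with such a lost peak a single RefSeq promoter was found by name, chromosome and strand, without a check of position. C21orf59 and CORO2A, among these 11, had several annotated starts, so their RefSeq promoter may lie away from the peak. TGACGT stood in 3 of the 11, against 7.43% of 22114 promoters of the same length, searched on both strands. TATAAA stood in 2 (11.8% of all), and the GC-box core GGGCGG in 8 (40.9% of all). The 7 promoters matched in the same way for shared peaks held TGACGT in 3, TATAAA in 4 and GGGCGG in 2, so TGACGT and TATAAA were no rarer there. Of 2 shorter forms of the GR response element, ACANNNTGT was in 0 of the 11 (4.83% of all) and AGAACA in 1, that of FOSB (12.6% of all). The AP-1 element TGACTCA was in 1, that of KCTD11 (4.36% of all). The median GC content of the 11 was 64.8%, against 66.4% for the 7 shared-peak promoters and 57.2% over all 22114. With 11 and 7 sequences these shares are a description of those promoters only.

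The vehicle file listed the lost peaks mostly in its lower lines. Among the first 100 lines 17 peaks were lost (17%, 95% Wilson interval 10.9 to 25.5), among lines 401 to 500 63 were lost, and among the last 108 lines 86 (79.6%, interval 71.1 to 86.1). The median line was 683.5 for lost and 350 for shared peaks. The file does not say what its order stands for, and every peak has the score 1, so peak height could not be compared. Intervals on shares of peaks cover counting error only. The distance to the nearest dex peak had a median of 350651 bases. Only 8 lost peaks (1.28%) had a dex peak within 1000 bases, the closest being 9 bases away near SNTG1, 42 bases near LIF and 247 bases inside FIRRE. On the other side of the rule, shared peaks overlapped by a median of 303 bases, and the smallest overlaps were 43 bases near WNT16 and 74 bases near VGLL4.

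**Figure D1:**
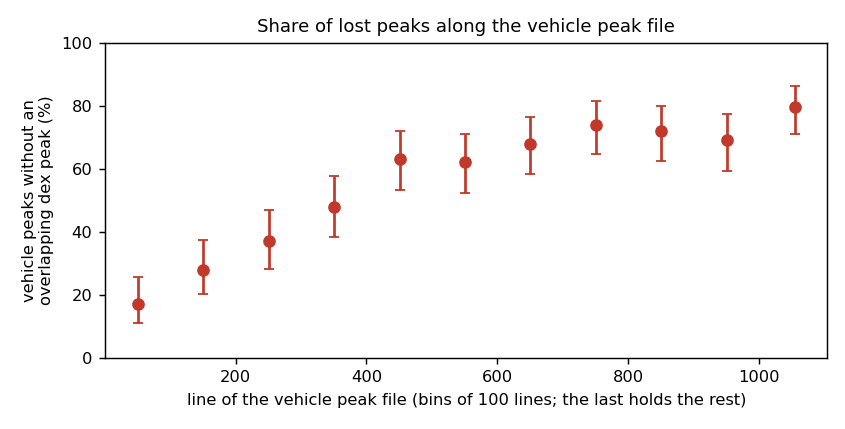
Share of vehicle peaks lost with dex (y axis, percent) in successive stretches of the vehicle peak file (x axis, line number); points are shares and bars 95% Wilson intervals for counting error. The share was 17% in the first 100 lines and 79.6% in the last 108.

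Most lost peaks lay far from gene starts. Their median distance to the nearest TSS was 43877 bases, against 32069.5 for shared and 39534 for dex-only peaks. Within 1000 bases of a TSS were 50 lost peaks (8.01%, interval 6.13 to 10.4), 8.47% of shared peaks (6.31 to 11.3) and 2.95% of dex-only peaks (2.03 to 4.25). The intervals of lost and shared peaks overlapped, and that of the dex-only peaks lay below both. Inside a transcript lay 348 lost peaks (55.8%), against 53.1% of shared and 59.6% of dex-only peaks. The lost peaks had 557 nearest genes. Neighbouring lost peaks within 100 kb of each other made up 16.3% of the total, against 19.2% for shared and 21.6% for dex-only peaks. By chromosome, the share of vehicle peaks lost ran from 38.5% on chromosome 14 (15 of 39) to 76.9% on chromosome 18 (10 of 13).

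**Figure D2:**
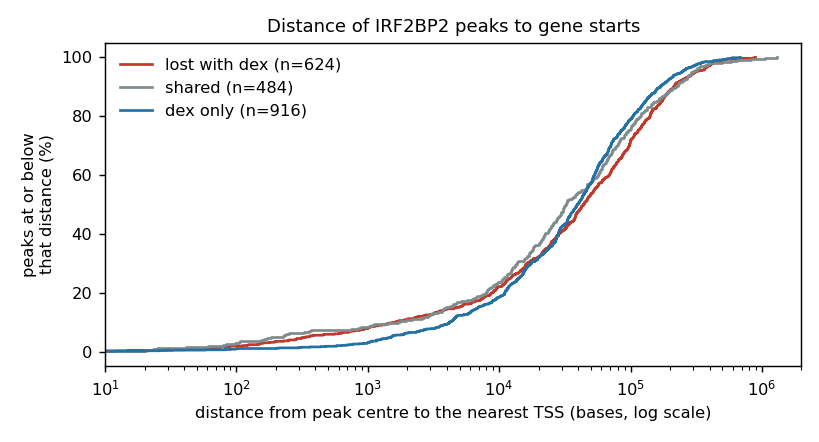
Cumulative share of peaks (y axis, percent) by distance from the peak centre to the nearest TSS (x axis, bases, log scale) for 624 lost, 484 shared and 916 dex-only peaks. The dex-only line stays lowest near gene starts, with 2.95% of peaks within 1000 bases against 8.01% of lost and 8.47% of shared peaks.

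Among the lost peaks were both peaks inside the gene of IRF2BP2 itself. They lay at chr1:234744736-234745078, 365 bases downstream of the TSS, and at chr1:234743081-234743423, 2020 bases downstream, and they stood on lines 3 and 5 of the vehicle file, the first lost peaks in it. The nearest dex peak was 83429 bases from the second of them. Shared peaks lay at 85.8, -90.9 and -114.8 kb from the TSS. IRF2BP2 RNA was 23.4, 25.0 and 20.3 FPKM in the siNON vehicle libraries and 20.6, 20.0 and 19.3 FPKM after dex. The lowest vehicle library lay between the dex libraries, and the log2 change of -0.19 (SE 0.08) did not pass (limma, adjusted p = 0.122). It passed without siNON vehicle replicate 3, at -0.28 with an adjusted p of 0.0229, and with median-of-ratios scaling, at -0.23 with an adjusted p of 0.0413.

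FOXC1, a forkhead transcription factor of mesenchyme and kidney development, was the nearest gene of 7 lost peaks, more than any other. The 7 lay 56.9 to 246 kb downstream of its TSS, all inside the neighbouring GMDS transcript, and 5 of them fell between 1787342 and 1856869 on chromosome 6 with no shared or dex-only peak in between. FOXC1 RNA was 27.5, 26.0 and 24.7 FPKM with vehicle and 14.1, 14.8 and 14.5 FPKM with dex. Every dex library was below every vehicle library, a log2 change of -0.84 (SE 0.08, adjusted p = 5.06e-07).

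FIRRE, a long non-coding RNA of the X chromosome with a role in nuclear organisation, differed in that its 4 lost peaks were mixed with 14 shared and 2 dex-only peaks along its 128 kb. FIRRE was at 2.83, 2.63 and 3.14 FPKM with vehicle and 1.90, 1.84 and 1.73 FPKM with dex, again without overlap (log2 change -0.62, SE 0.11, adjusted p = 0.000731). PCDH7, a protocadherin with 4 lost peaks, fell by 1.31 (SE 0.07, adjusted p = 1.56e-09). Its lost peaks lay far away, at 117011 to 893899 bases from the nearest TSS. FRMPD4, a scaffold protein, fell by 1.23 and PDE4D, a cyclic AMP phosphodiesterase, by 0.88, each with 3 lost peaks. The closest of these lay at -57323 bases from the TSS for FRMPD4 and at 2990 bases for PDE4D. Of the 10 genes nearest to at least 3 lost peaks 7 could be tested, and 6 of these were lower after dex and none higher, against 9.82% lower and 10.9% higher among all 15593 genes tested. The exception was SVIL at -0.15 (adjusted p = 0.223), while SLIT2, an axon guidance ligand, fell by 0.45. The lost peaks of SLIT2 lay at -500791 to 41135 bases from the nearest TSS. SLIT2 and SVIL were named after their values were seen. CASC17, LINC00708 and LOC152225 were at 0 or under 0.1 FPKM in the siNON libraries.

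**Figure D3:**
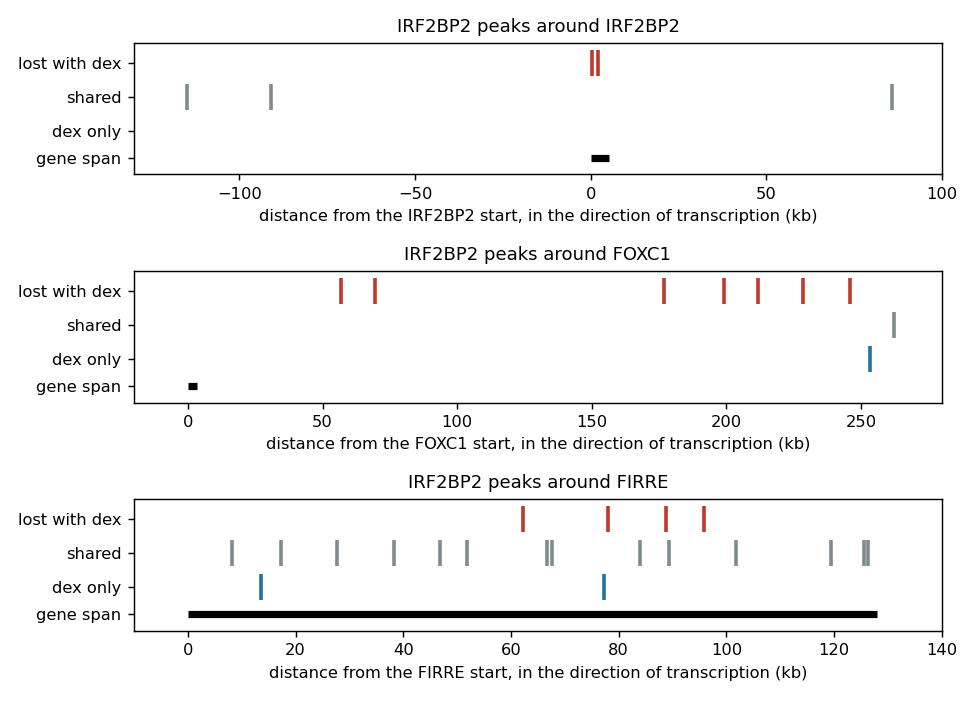
Positions of lost, shared and dex-only IRF2BP2 peaks (ticks, 1 row per class) around IRF2BP2, FOXC1 and FIRRE, by distance from the gene start in the direction of transcription (x axis, kb); the black bar is the gene. At IRF2BP2 2 lost peaks lie in the gene and 3 shared peaks lie far from it, at FOXC1 7 lost peaks lie downstream, and in FIRRE 4 lost peaks lie among 14 shared peaks.

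To ask how genes next to lost peaks answered to dex, each peak was assigned to the gene of the nearest TSS within 10 kb. This gave 135 genes from 138 peaks, of which 104 had at least 10 reads in at least 3 libraries and were tested. With siNON, 32 of the 104 were lower and 11 higher after dex (limma, adjusted p under 0.05). Over all 15593 genes tested, 9.82% were lower and 10.9% higher (20.7% in either direction). The median log2 change was -0.15 for the lost-peak genes and 0.02 over all genes. Among 85 genes next to shared peaks 26 were lower and 14 higher, and among 127 genes next to dex-only peaks 6 were lower and 60 higher. The difference between these classes was not tested. Genes next to lost peaks were also more often above the read minimum, which 77.0% of them passed against 60.7% of all genes. The other classes were alike in this, at 76.6% for shared and 75.6% for dex-only peaks. The median level among genes that passed was 10.3 FPKM for lost, 10.0 for shared and 5.28 for dex-only peaks, against 7.16 over all genes.

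Genes called lower were also found far from the peak. For genes whose closest lost peak lay within 1 kb of the TSS, 10 of 46 were lower after dex and 4 higher. At 1 to 10 kb 22 of 58 were lower and 7 higher, at 10 to 100 kb 68 of 197 were lower and 19 higher, and beyond 100 kb 36 of 92 were lower and 5 higher. Over all genes these shares were 9.82% and 10.9%. Genes nearest to shared peaks gave 11 lower and 7 higher of 31 within 1 kb, and 15 lower and 7 higher of 54 at 1 to 10 kb. At 10 to 100 kb they gave 44 lower and 14 higher of 161. Beyond 100 kb they gave 19 lower and 5 higher of 56. Genes nearest to dex-only peaks gave 1 lower and 11 higher of 21 within 1 kb, and 5 lower and 49 higher of 106 at 1 to 10 kb. Farther away they gave 60 lower and 83 higher of 369 at 10 to 100 kb, and 19 lower and 16 higher of 90 beyond 100 kb. The difference from lost peaks was not tested. Of 38 tested genes nearest to at least 2 lost peaks at any distance, 20 were lower and 3 higher, with a median of -0.45.

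**Figure D4:**
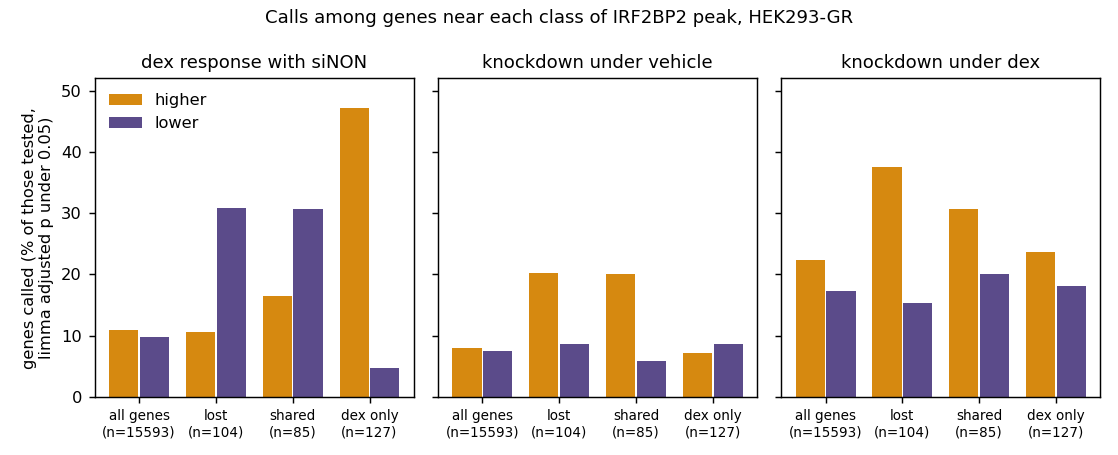
Share of tested genes called higher or lower (y axis, percent, limma adjusted p under 0.05) in 3 comparisons of HEK293-GR RNA, for all genes and for genes whose TSS lay within 10 kb of a lost, shared or dex-only peak (x axis, with the number tested). After dex 32 of 104 lost-peak genes were lower and 11 higher, whereas 60 of 127 dex-only-peak genes were higher.

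The largest fall was that of SLC7A11, the cystine and glutamate exchanger that feeds glutathione synthesis, whose lost peak lay 73 bases upstream of the TSS. Its level was 2.78, 4.13 and 5.04 FPKM with vehicle and 1.22, 1.40 and 1.32 FPKM with dex. The groups did not overlap, which the rule for naming the genes of largest change required, and the log2 change was -1.49 (SE 0.22, adjusted p = 0.000137). SLC7A11-AS1 overlaps it on the other strand, and whether the counting used strand is not given in the sources used here. NRP1, a co-receptor of semaphorins and VEGF, went from 10.4, 11.0 and 9.38 FPKM to 4.55, 4.41 and 4.54 FPKM (-1.17, SE 0.09, adjusted p = 5.27e-08). EYA1, a transcriptional coactivator and phosphatase of kidney and ear development, had a lost peak 1036 bases into the gene. It went from 3.51, 3.66 and 3.76 FPKM to 1.74, 1.66 and 1.80 FPKM (-1.03, SE 0.10, adjusted p = 1.24e-06). For NRP1 and EYA1, too, the rule required that the groups did not overlap. HOXC4, which shares its span with HOXC5 and HOXC6 and is therefore uncertain, fell by 1.11, and ATXN1, a chromatin-binding repressor, fell by 1.07.

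Of all 25689 annotated genes 135 (0.526%) had a lost peak within 10 kb, a share against which the counts over lists of genes stand. Of 17 circadian clock genes 2 had one, and both fell. BHLHE40, a repressor of the clock activators, was at 19.2, 17.7 and 12.6 FPKM with vehicle and 7.98, 8.01 and 7.65 FPKM with dex (-1.04, SE 0.12, adjusted p = 8.94e-06). NR1D2, the nuclear receptor REV-ERB beta, had its lost peak 40 bases before the TSS. It was at 9.48, 10.6 and 13.1 FPKM with vehicle and 6.82, 6.74 and 5.98 FPKM with dex (-0.75, SE 0.11, adjusted p = 0.000118). In both genes the vehicle libraries spread more widely than the dex libraries without reaching them.

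Of 21 immediate early and AP-1 genes, 4 had a lost peak within 10 kb, namely FOS, FOSB, ATF3 and KLF6, against 1 with a shared and 0 with a dex-only peak. ATF3, a stress-induced partner of AP-1, was at 22.9, 26.9 and 20.0 FPKM with vehicle and 13.0, 12.7 and 14.1 FPKM with dex, and fell by 0.80 (SE 0.10, adjusted p = 1.97e-05). FOS was at 4.37, 3.12 and 3.15 FPKM with vehicle and 1.93, 3.09 and 2.26 FPKM with dex. The FOS groups almost touched, and its change of -0.54 (SE 0.17, adjusted p = 0.036) did not pass without siNON vehicle replicate 1 (-0.38, 0.121), siNON dex replicate 1 (-0.39, 0.159) or siNON dex replicate 3 (-0.50, 0.115). FOSB, at -0.27 (adjusted p = 0.241), and KLF6, a zinc finger factor, at -0.21 (0.0534), did not pass. KLF6 passed without siNON vehicle replicate 3 (adjusted p = 0.0454) and with median-of-ratios scaling (0.0139).

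Of 27 YAP and TEAD target genes 3 were next to a lost peak, against 3 next to a shared and 0 next to a dex-only peak. DLC1, a tumour suppressor, fell by 0.71 (SE 0.08, adjusted p = 8.51e-06) and GADD45A, a stress gene that is also on the p53 list, by 0.36 (SE 0.09, adjusted p = 0.00949). PTPN14 stood at -0.14 (adjusted p = 0.157). Of 22 p53 target genes 1 was next to a lost peak, against 3 next to a shared peak. Of 36 genes known to be induced by GR, 3 were next to a lost peak, ANGPTL4, KLF6 and KLF9, against 7 next to a dex-only peak. KLF9 was at 4.29, 4.88 and 4.71 FPKM with vehicle and 5.13, 5.00 and 4.52 FPKM with dex, overlapping ranges (0.08, adjusted p = 0.587). ANGPTL4 was at or under 0.18 FPKM in every library and was not tested. The cholesterol synthesis, interferon, TNF, cell cycle, ribosomal and splicing lists held 0 lost-peak genes each, which at a share of 0.526% and lists of this size says nothing about them.

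The largest rise belonged to TMEM91, a small membrane protein gene, at 0.873, 0.943 and 0.552 FPKM with vehicle and 4.33, 5.26 and 4.89 FPKM with dex (2.49, SE 0.17, adjusted p = 1.25e-08). TMEM91 was 1 of only 3 genes with both a lost and a dex-only peak within 10 kb, their centres 2205 bases apart, and it overlaps B9D2 on the other strand. CDC14A, a phosphatase of the cell division cycle, rose by 0.66 (SE 0.10, adjusted p = 0.000128), CORO2A, a coronin, by 0.49 and PACSIN2, a membrane-shaping protein, by 0.45. MBOAT2, a lipid acyltransferase and another gene with both kinds of peak, rose by 0.38 (adjusted p = 0.0108). That call was lost without siNON dex replicate 1 (0.33, adjusted p = 0.0591). RERE, a corepressor, passed at 0.39 (adjusted p = 0.0378) but not without siNON vehicle replicate 3 (0.21, adjusted p = 0.159) or without any of siNON dex replicates 1, 2 and 3 (0.0958, 0.0773 and 0.103).

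**Figure D5:**
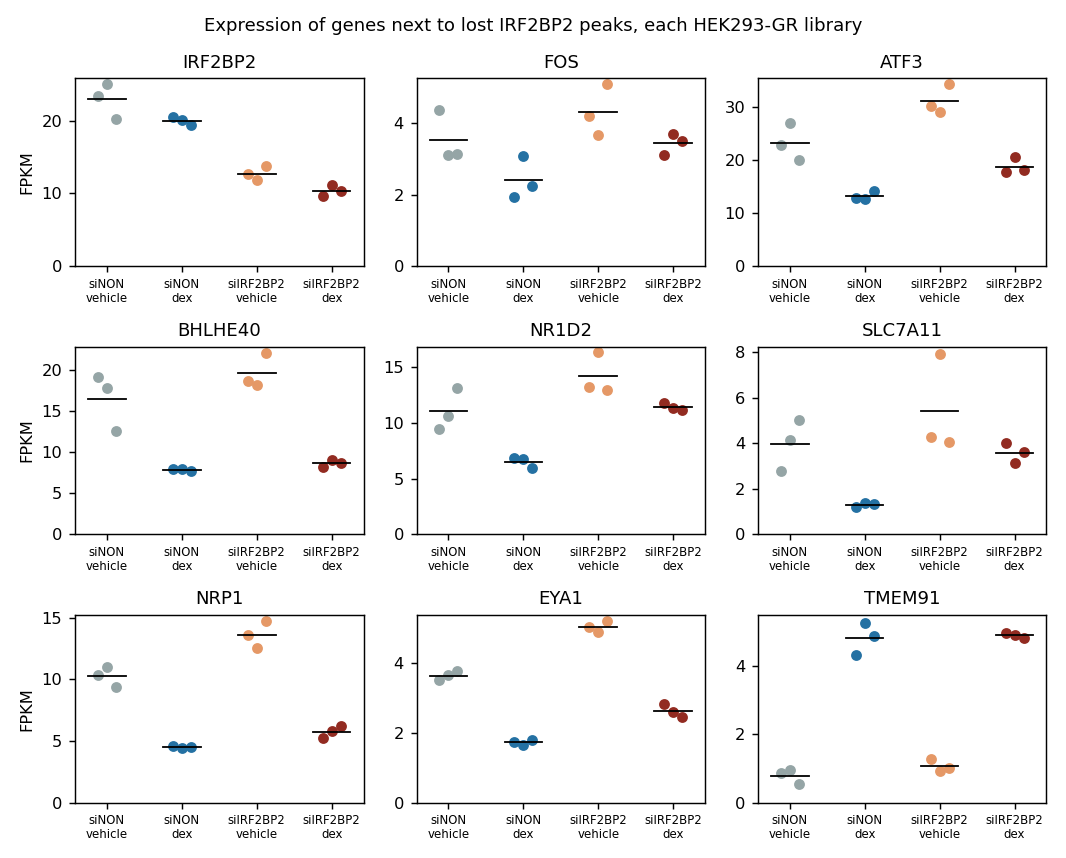
FPKM of 9 genes next to lost peaks (y axis, from 0) in each of the 12 HEK293-GR libraries (points), by siRNA and treatment (x axis); lines are group means of 3 libraries. ATF3, BHLHE40, NR1D2, SLC7A11, NRP1 and EYA1 are lower in every siNON dex library than in every siNON vehicle library, and TMEM91 is higher.

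Knockdown of IRF2BP2 served to ask which of the same genes changed when IRF2BP2 was lowered. IRF2BP2 RNA itself was 12.6, 11.8 and 13.7 FPKM with siIRF2BP2 and vehicle, below all siNON libraries (log2 change -0.84, SE 0.08, adjusted p = 1.87e-05), and 9.64, 11.1 and 10.4 FPKM with siIRF2BP2 and dex (-0.94, adjusted p = 3.44e-06). The peaks were called after 1 h of treatment in a separate experiment, and whether they were present in the RNA samples was not measured. Under vehicle, 21 of the 104 lost-peak genes were higher after knockdown and 9 lower. Over all genes 8% were higher and 7.48% lower (15.5% in either direction). The median change was 0.11 against 0.03 over all genes. Genes next to shared peaks gave 17 higher and 5 lower of 85, and genes next to dex-only peaks 9 higher and 11 lower of 127. The total of 30 called genes depended on single libraries, being 46 when siNON vehicle replicate 3 was left out, 16 when siNON vehicle replicate 1 was left out and 18 when siIRF2BP2 vehicle replicate 2 was left out. Higher calls outnumbered lower ones in each of these fits, at 35 and 11, 12 and 4, and 14 and 4. Over all genes the same fits gave 2749 higher and 2078 lower, 557 and 621, and 616 and 554. The split was narrower without siIRF2BP2 vehicle replicate 3, at 13 higher and 9 lower (765 and 918 over all genes). With just the 2 vehicle groups fitted it was also narrower, at 5 higher and 4 lower (214 and 353 over all genes).

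The falls were led by RRAS, a small GTPase related to RAS. It was at 6.72, 6.55 and 5.60 FPKM with siNON and 3.23, 2.90 and 3.74 FPKM with siIRF2BP2 under vehicle (-0.92, SE 0.12, adjusted p = 0.000134), a larger fall than that of IRF2BP2 itself in point estimate. NAGK, an N-acetylglucosamine kinase with a lost peak 455 bases into the gene, went from 19.6, 19.4 and 17.6 FPKM to 11.9, 10.5 and 11.6 FPKM (-0.73, SE 0.07, adjusted p = 1.87e-05). The groups of neither gene overlapped, as the naming rule required. ACAP3, a GTPase-activating protein for ARF, fell by 0.56 (adjusted p = 0.00192).

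Among the rises, FOSB went from 1.48, 1.03 and 0.990 FPKM to 1.93, 1.85 and 2.21 FPKM (0.74, SE 0.16, adjusted p = 0.00564). ATF3 rose to 30.2, 29.2 and 34.4 FPKM (0.43, SE 0.10, adjusted p = 0.01), GADD45A by 0.46 (adjusted p = 0.00371) and EYA1 by 0.46 (adjusted p = 0.0072). CDC14A rose by 0.56 (adjusted p = 0.00186) and TBC1D9, a RAB GTPase-activating protein, by 0.50 (adjusted p = 0.00331). FIRRE, whose closest lost peak lay 62276 bases from its TSS and so outside the 10 kb window, rose by 0.52 (adjusted p = 0.00676). The groups of ATF3, named from its list, did not overlap. FOS stood at 0.28 (adjusted p = 0.275). When the fit held just the 2 vehicle groups, FOSB (0.0512), ATF3 (0.0601), EYA1 (0.0546) and FIRRE (0.0595) did not pass.

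Under dex, 39 of the 104 lost-peak genes were higher after knockdown and 16 lower. Over all genes 22.4% were higher and 17.3% lower (39.7% in either direction), and the medians were 0.13 and -0.00. Genes next to shared peaks gave 26 higher and 17 lower of 85, and genes next to dex-only peaks 30 higher and 23 lower of 127. The difference between the classes was not tested. Among the lost-peak genes SLC7A11 had the largest rise, from the 1.22, 1.40 and 1.32 FPKM of siNON to 4.01, 3.16 and 3.61 FPKM (1.38, SE 0.22, adjusted p = 0.000449). Under vehicle its change was 0.41 (adjusted p = 0.228), with 1 siIRF2BP2 library at 7.91 FPKM and the other two at 4.29 and 4.04 FPKM. That value passed without siNON vehicle replicate 3 (0.59, adjusted p = 0.0496). NR1D2 was at 11.8, 11.4 and 11.1 FPKM with siIRF2BP2 and dex (0.80, SE 0.11, adjusted p = 0.000143), PDE4D rose by 1.05 (adjusted p = 0.00023) and LCA5, a ciliary protein, by 1.01 (adjusted p = 0.000807). KLF6 rose by 0.55 (adjusted p = 0.0001) and FOSB by 0.70 (adjusted p = 0.00291). FIRRE, which is not among the 104, rose by 0.93 (adjusted p = 4.95e-05). RRAS, NAGK and ACAP3 fell again, by 0.83, 0.73 and 0.58, together with PRSS23, a serine protease, by 0.55. On the other strand, FZD4 and OR7E2P overlap PRSS23, and PART1 overlaps PDE4D. BHLHE40 was at 0.13 (adjusted p = 0.4). By the FDR of the authors' deposited table for HEK293-GR, 9 of all 135 lost-peak genes were higher and 6 lower after knockdown under vehicle. Over all 25689 genes 3.28% were called in either direction. These include 5591 genes at 0 FPKM with siNON and vehicle, so that share is not like the one over genes tested here. Lost-peak genes numbered 40 higher and 20 lower after knockdown under dex (28.2%), and 9 higher and 29 lower after dex (10%), in the authors' deposited table. The knockdown and dex comparisons share the siNON libraries, so their directions are not independent of each other.

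Whether the response to dex itself differed between siIRF2BP2 and siNON was tested as a difference of the 2 responses. None of the 104 lost-peak genes passed with limma, and 2 of all 15593 did (0.0128%, both lower and 0% higher), while 805 genes (5.16%) had an unadjusted p under 0.05. The largest difference among the lost-peak genes was that of SLC7A11, at 0.98 (SE 0.32, adjusted p = 0.794).

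In A549, where no IRF2BP2 ChIP was analysed here, the authors' deposited table was used, with 1 pooled column per group and no spread between replicates. Of the lost-peak genes 121 were in it. With the authors' deposited FDR under 0.05, 16 were higher and 10 lower after dex (8.39% of all genes in either direction), and after knockdown under vehicle 22 were higher and 33 lower (27.1%). After knockdown under dex 24 were higher and 29 lower (25%). IRF2BP2 itself was at 29.7 FPKM with siNON and 26.3 FPKM with siIRF2BP2 under vehicle in the authors' deposited table, a log2 change of -0.31, and at -0.66 under dex. For HEK293-GR the authors' deposited table gave -0.86 and -0.97, so the measured fall of the targeted RNA was smaller in A549. The immediate early genes stood on the other side of 0 from HEK293-GR. In the authors' deposited table for A549, knockdown under vehicle gave -2.60 for FOS, -2.38 for FOSB, -1.74 for ATF3 and -1.52 for KLF6. For HEK293-GR the authors' deposited table gave 0.27, 0.76, 0.41 and 0.24, and FOS and KLF6 did not pass (authors' deposited FDR 0.745 and 0.32). FOS in A549 was at 22.8 FPKM in the authors' pooled siNON vehicle value and 4.05 with siIRF2BP2. For NR1D2 in A549 the authors' deposited table gave -1.16, for RRAS -1.36, and for SLC7A11 under dex -1.47. Named genes went both ways under vehicle. NAGK (-0.28 in A549, -0.75 in HEK293-GR), TBC1D9 (0.45, 0.50) and RRAS (-0.97 in HEK293-GR) kept their sign, and GADD45A (-0.54, 0.44) did not. FOXC1 after dex in A549 was at -0.83 in the authors' deposited table, and KLF9, which did not pass in HEK293-GR, was at 3.57. The difference between the cell lines was not tested.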

How the data were processed

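Peaks of IRF2BP2 were called by the authors on build hg19, and per the submitters' processing notes the tools named for ChIP are Bowtie 0.12.9, bedtools, FastQC and HOMER 4.10.3. Those named for RNA are TopHat2, Bowtie2, edgeR, HOMER, Trimmomatic 0.33 and FastQC, and no order or role is given. The score of every deposited peak is 1, so only positions were used. How the 2 ChIP replicates and any input were combined is not given in the sources used here. The HEK293-GR and A549 tables hold FPKM, which the authors scaled by length and tags before deposit, per the file headers. The deposited log2 fold changes and the deposited FDR (adjusted p-value) columns are the authors' own.

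Peak files were intersected with bedtools 2.31.1 at 1 base, and the nearest TSS was taken from the transcripts of the A549 table. The plan allowed for counts or FPKM. The table held FPKM, and log2(FPKM + 0.1) was fitted, for genes reaching 10 reads in 3 or more of the 12 libraries, with limma 3.58.1 in R 4.3.3 (trend, 4 groups, 8 residual degrees of freedom, Benjamini-Hochberg over all genes, threshold 0.05). Reads were recovered from FPKM and length. Fold changes are on the log2(FPKM + 0.1) scale, which understates changes of low genes. The labels number 4 HEK293-GR replicates per group, and 4 of the 16 samples were not analysed here. The fit was tested on simulated data.

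The regions, gene lists and tests were chosen with earlier results of these data known. Named genes were IRF2BP2, per comparison up to 6 rises and 6 falls among called coding lost-peak genes with at least 5 CPM and no overlap between groups, members of the lists, genes nearest to at least 3 lost peaks (up to 8), and genes near both a lost and a dex-only peak. Alternatives were pseudocount, read filter, scaling, groups in the fit, replicate block, each library left out, the authors' FDR, the overlap rule, the TSS set and the window.

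Replicate numbers were checked for pairing: deviations of same-numbered libraries correlated at -0.38 to 0.26, which gave no sign of pairing. The labels do not say whether same-numbered libraries were prepared together, and the numbers were not used as pairs in the main fit.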

Additional observations from a re-analysis of the deposited data

How the results depend on the processing

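The number of lost peaks ran from 616 to 634 under the other overlap rules tried, against 624, a count that has no spread. Their share within 1 kb of a TSS stayed inside its Wilson interval under each rule. The median distance to a TSS rose to 63593.5 bases with protein-coding (NM_) transcripts only. When just the 2 groups compared were fitted, knockdown under vehicle called 567 genes and 9 lost-peak genes (2414 and 30 before), and by the authors' deposited FDR 843 and 15. With the window at 1 kb and at 100 kb, lost-peak genes called were 13 and 65 for knockdown under vehicle, 25 and 138 for knockdown under dex, and 14 and 130 for dex, the windows holding fewer and more genes. The difference of responses called 22 genes with a pseudocount of 1. With the replicate block it called 0, and the block moved no other count by over 1.5 times. The same-numbered libraries did not correlate above all others for any of the 12 libraries (0 of 12). Among named genes the block ended, after dex, the calls of FOS and RERE (adjusted p 0.0564 and 0.0561).

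Leaving out 1 library at a time gave 1170 to 4827 genes and 16 to 46 lost-peak genes for knockdown under vehicle, 1978 to 3927 genes for dex and 0 to 6 genes for the difference. The counts of all genes for knockdown under vehicle were 1178, 1348 and 4827 without siNON vehicle replicates 1, 2 and 3 and 1170 without siIRF2BP2 vehicle replicate 2, and the 1978 for dex was without siNON dex replicate 3. For dex, lower calls among lost-peak genes ran from 27 to 33 and higher from 6 to 12. With median-of-ratios scaling they were 37 and 10 (1837 and 1589 over all genes). Of 80 calls of named genes 54 held under every alternative, 22 of 26 for dex, 24 of 30 for knockdown under dex and 8 of 24 for knockdown under vehicle. No called value changed sign. Values that had not passed did so when a library was left out: RRAS after dex (-0.13 to 0.0023), HOXC4 (-9.2e-05 to 0.084), RERE (-0.094 to 0.21), MBOAT2 (-0.15 to 0.067) and CHAC1 (-0.030 to 0.42) for knockdown under vehicle, and TMEM91 (-0.048 to 0.091), CHAC1 (-0.12 to 0.16) and FOXC1 (-0.0046 to 0.12) for knockdown under dex. The causes were not tested.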

Other observations

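HMOX1 and BACH1 were named after their values were seen, and CHAC1 from the stress list. HMOX1, the haem oxygenase, had a lost peak 3949 bases upstream of its TSS and fell by 0.92 after dex in HEK293-GR, and BACH1, the repressor of HMOX1, had 1 at 927 bases downstream and fell by 0.78 (limma, adjusted p = 2.3e-06 and 0.00042). CHAC1, a glutathione-degrading enzyme of the amino acid stress response, had a lost peak 15 bases before its TSS. Its levels were 12.4, 21.6 and 11.4 FPKM with vehicle and 18.7, 17.5 and 25.8 FPKM with dex, an overlap with a log2 change of 0.48 (limma, adjusted p = 0.067), which passed without siNON vehicle replicate 2 (0.77, adjusted p = 0.000501).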
